A study of Homo sapiens with 6 samples.

Results

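The protocadherins are the largest branch of the cadherin superfamily, and 66 of the 50883 gene symbols in the count table belonged to it. They were taken as symbols that begin with PCDH, contain no hyphen and do not end in P or in P and digits, the pseudogene ending; the Y-linked copy of PCDH11X was not used. The 66 genes comprised 16 of the alpha cluster, 17 of the beta cluster, 21 of the gamma cluster and 12 non-clustered genes. RefSeq annotates 3 of them, PCDHA14, PCDHB17 and PCDHB18, as pseudogenes. RNA was measured in D283, an established medulloblastoma cell line, as total RNA from 6 cultures. The OTX2 knockout group held 3 cultures infected with lentivirus carrying GFP and a guide RNA against OTX2, and the control group held 3 cultures infected with lentivirus carrying GFP and a non-targeting guide. All 6 cultures were collected after 7 days. Replicates were separate infections of this line, and a p-value reflects the variation among them alone. Sources used here do not give the share of edited cells or where the nuclease came from.

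Protocadherins are single-pass membrane proteins, and the outer cadherin repeats of many of them bind the same isoform on a facing cell. In the alpha and gamma clusters each gene has its own promoter and a long variable exon that codes for the whole outer part, and this exon is spliced to constant exons shared by the cluster, whereas each beta gene is a single exon. Neurons use a few of these promoters each, chosen with the help of CTCF and cohesin and of DNA methylation, while the C-type genes at the end of the alpha and gamma clusters are used more uniformly. Non-clustered members are grouped as delta-1 and delta-2 by their cadherin repeats and cytoplasmic motifs and act in axon growth, cell sorting and synapse formation.

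The deposited counts summed to between 60561438 and 62166870 in the OTX2 knockout libraries and between 54540645 and 61662466 in the control libraries, and the protocadherins held 0.0238% to 0.0241% of the counts in knockout libraries and 0.0200% to 0.0218% in control libraries. Levels are given as CPM, counts scaled by library size with TMM factors, and 3 counts corresponded to 0.0471 to 0.0563 CPM, so low members carry large counting error. OTX2 itself had 765, 824 and 887 CPM in the OTX2 knockout libraries, against 1002, 979 and 909 CPM in the control libraries. Its log2 fold change was −0.22 ± 0.058 (SE; edgeR quasi-likelihood test, adjusted p = 0.00646), and a cut in a gene need not lower its RNA. Control replicate 1 had 0.764% of its counts in mitochondrial genes, while the other control libraries had 0.440% to 0.449% and the knockout libraries 0.531% to 0.602%. Without it the filter took 50 protocadherins in place of 42 (18929 genes in all in place of 18420), and 35 were called higher and 3 lower, in place of 31 and 3. The rise to 50 was not particular to this library. The filter also took 50 without control replicate 2 and without control replicate 3, with 25 and 32 called higher in that order.

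Most protocadherins were higher in OTX2 knockout than in control cells, while PCDHAC2, the member with the highest CPM in control cells, was lower. Among the 42 members that passed the count filter, 31 were higher and 3 were lower in OTX2 knockout at an adjusted p under 0.05 (edgeR quasi-likelihood test, Benjamini-Hochberg adjustment over 18420 genes), and 8 did not pass the test. The 3 lower genes were PCDHAC2, PCDHAC1 and PCDH8. Over all tested genes, 21.2% were called higher and 18.5% lower. The median log2 fold change was 0.89 over the 42 tested members and 0.01 over all tested genes. For 33 tested members every OTX2 knockout CPM exceeded every control CPM, and for 3 every knockout CPM was below, against 26.2% and 23% of all tested genes.

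The filter weighs on these counts. Of the 42 tested members, 33 reached its minimum of 0.164 CPM in all libraries of both groups, and 24 of those were called higher and 3 lower. The other 9 reached it in all knockout libraries but not in all control libraries, which selects genes that are higher in knockout, and 7 of these were called higher. A division by total count over all 6 libraries, which uses no group, gave 37 members with at least 100 counts, of which 28 were called higher, 3 lower and 6 neither. Among all tested genes with at least 100 counts, 21.6% were called higher and 20% lower. Of the 64 members with any count, 57 had the higher mean in OTX2 knockout and 7 in control. Of all symbols, 55% of the 33201 with counts had the higher mean in knockout. PCDHA14 and PCDH20 had 0 counts in every library, and these zeros set no upper limit on expression. All 75-base strings of PCDHA14 occur in another protocadherin gene, and 4577 of the 4778 exon bases of PCDH20 overlap a gene on the opposite strand, so reads from either could have gone uncounted.

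**Figure D1:**
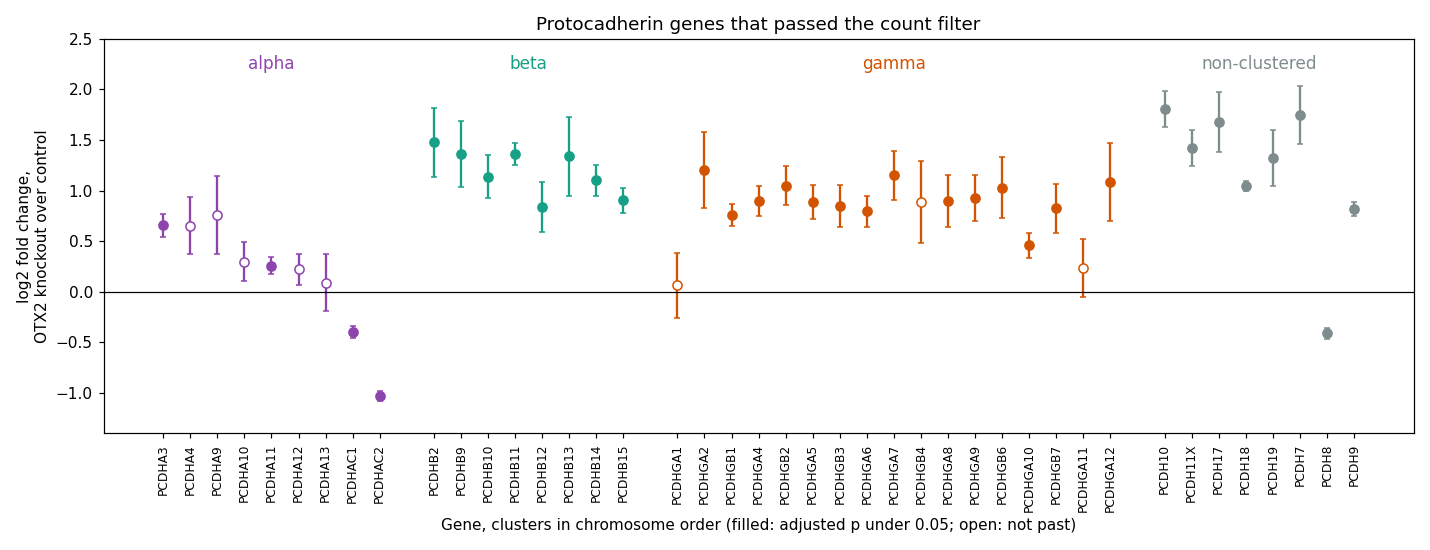
Log2 fold change (OTX2 knockout over control, y axis) of the 42 protocadherin genes that passed the count filter, with clustered genes in chromosome order. Bars are the standard error derived from the edgeR F statistic, filled points had an adjusted p under 0.05 and open points did not. All tested beta genes and all tested genes of PCDHA1 to PCDHA14 lie above 0, PCDHAC1 and PCDHAC2 lie below 0, and PCDH8 is the non-clustered gene below 0.

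PCDHAC2 and PCDHAC1 are the C-type genes at the distal end of the alpha cluster. In mouse, PCDHAC2 is needed for serotonergic axons to spread out evenly over their targets. PCDHAC2 had 42.1, 40.6 and 44.6 CPM in the OTX2 knockout libraries, against 90.0, 84.1 and 86.2 CPM in the control libraries. All 3 knockout values lay below all 3 control values. Its log2 fold change was −1.03 ± 0.050 (SE; edgeR, adjusted p = 5.22e-10), on 8016 counts in the knockout group and 14544 in the control group. PCDHAC1 had 11.3, 11.2 and 11.4 CPM in the OTX2 knockout libraries, against 14.4, 15.2 and 15.2 CPM in the control libraries. These groups did not overlap either, and the log2 fold change was −0.40 ± 0.060 (edgeR, adjusted p = 8.97e-05). Tested against a 1.5-fold change, PCDHAC2 still passed and PCDHAC1 did not. In bulk RNA, fewer cells that express a gene and less RNA of it per cell cannot be told apart.

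The promoter windows of both genes are shown because both genes were called lower. Each covers 250 bases before to 50 bases after the RefSeq gene start (GRCh38.p14, plus strand), chr5:140926049-140926348 for PCDHAC1 and chr5:140966226-140966525 for PCDHAC2, and capitals mark CGCT, the core of the conserved sequence element of clustered protocadherin promoters, or its reverse complement.
PCDHAC1: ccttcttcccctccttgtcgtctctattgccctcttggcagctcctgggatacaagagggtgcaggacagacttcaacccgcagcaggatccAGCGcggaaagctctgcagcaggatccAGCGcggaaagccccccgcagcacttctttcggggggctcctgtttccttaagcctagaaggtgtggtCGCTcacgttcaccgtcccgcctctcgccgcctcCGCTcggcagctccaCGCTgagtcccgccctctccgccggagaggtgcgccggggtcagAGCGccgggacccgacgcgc
PCDHAC2: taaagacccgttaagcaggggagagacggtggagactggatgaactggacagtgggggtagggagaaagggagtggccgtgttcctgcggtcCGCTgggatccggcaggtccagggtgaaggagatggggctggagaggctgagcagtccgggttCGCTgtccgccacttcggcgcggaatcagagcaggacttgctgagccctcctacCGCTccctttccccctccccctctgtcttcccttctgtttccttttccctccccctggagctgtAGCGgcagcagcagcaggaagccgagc
RefSeq starts PCDHAC2 at base 140966476, whereas its GENCODE model starts at 140966235, so by GENCODE nearly all of the PCDHAC2 stretch is exon rather than promoter. The windows held 6 matches in PCDHAC1 and 4 in PCDHAC2. CGCT is short, and 71.9% of the 27305 genes with a window had it on either strand. A match marked or counted here therefore does not show that the conserved element is present. Counted by gene, since some genes have several windows, it was present in 12 of 13 alpha, 13 of 13 beta, 19 of 19 gamma and 9 of 10 non-clustered genes with a window. The C-type windows had a median GC content of 62.3%, against 36% in the other alpha windows, 39.7% in beta windows, 42% in the other gamma windows, 56.9% in non-clustered windows and 58.7% over all windows.

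The remaining alpha genes, PCDHA1 to PCDHA14, are the alternately used members. Of these 14 genes 7 were tested. PCDHA3 and PCDHA11 were called higher and the other 5 (PCDHA4, PCDHA9, PCDHA10, PCDHA12 and PCDHA13) did not pass the test. The share called higher was 21.2% over all tested genes, so 2 of 7 does not set these genes apart. PCDHA3 had 4.22, 4.16 and 4.31 CPM in the OTX2 knockout libraries, against 2.80, 2.98 and 2.25 CPM in the control libraries. The groups did not overlap, with a log2 fold change of 0.66 ± 0.11 (SE; edgeR, adjusted p = 2.7e-04). PCDHA11 had 6.41, 6.29 and 6.49 CPM in the OTX2 knockout libraries, against 5.80, 4.98 and 5.29 CPM in the control libraries. The log2 fold change was 0.26 ± 0.085 (edgeR, adjusted p = 0.0249), and the call was lost in DESeq2 and when any 1 library other than control replicate 1 was left out. The 5 tested genes without a call had log2 fold changes between 0.09 and 0.76. Of the 7 untested genes, PCDHA14 had no count, PCDHA2 had 3 counts in the knockout group and 4 in the control group, and the other 5 had the higher mean in OTX2 knockout.

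A 9-base string shared by the most alpha windows, GATGTCGCT, was present in 9 of the 13 alpha genes with a window, and on either strand in 0.128% of all genes. It was found by searching these same windows, so its frequency in the cluster describes the choice. Example sites of 49 bases are printed with the string in capitals (GRCh38.p14, plus strand), at chr5:140786077-140786125 for PCDHA1, chr5:140855832-140855880 for PCDHA10 and chr5:140875235-140875283 for PCDHA12.
PCDHA1: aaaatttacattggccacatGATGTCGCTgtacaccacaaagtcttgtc
PCDHA10: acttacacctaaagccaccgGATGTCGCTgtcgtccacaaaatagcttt
PCDHA12: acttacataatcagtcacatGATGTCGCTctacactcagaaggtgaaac
The string contains CGCT and lay 43 to 86 bases before the gene start in the 9 genes. Neither PCDHAC1 nor PCDHAC2 had it in the window. TAATCC, the site class of OTX2-like homeodomains, was searched on both strands and was present in 7.81% of all genes and in 1 of the 13 alpha genes with a window, PCDHA1.

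Because all alpha transcripts end in the same constant exons, reads there cannot be assigned to 1 gene. The junctions are printed to show how the variable exon (lower case) meets the first constant exon (capitals, 59 bases at chr5:140978949-140979007, GENCODE release 29, GRCh38, plus strand, shared by 15 alpha members).
PCDHA3: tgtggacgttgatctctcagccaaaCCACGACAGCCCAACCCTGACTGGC
PCDHA11: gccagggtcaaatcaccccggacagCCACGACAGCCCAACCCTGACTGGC
PCDHAC1: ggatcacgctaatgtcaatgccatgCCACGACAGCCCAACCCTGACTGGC
PCDHAC2: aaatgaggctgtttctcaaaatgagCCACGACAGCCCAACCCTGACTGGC
The constant exon lies 9617 bases beyond the variable exon of PCDHAC2, 49623 beyond that of PCDHAC1, 107454 beyond that of PCDHA11 and 175357 beyond that of PCDHA3. PCDHA2, with 0 to 2 counts a library, also carries the constant exons, so reads over them were not added to every alpha gene in the table. The variable exons of PCDHAC1 and PCDHAC2 had none of their 75-base strings in another protocadherin gene. Exons of PCDHAC2 and PCDHA3 overlap annotated genes on the opposite strand, and a strand setting of the counting is not given here, so reads of both could not be told apart.

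PCDHAC2 made up 60.8%, 60.6% and 61.9% of alpha CPM in the OTX2 knockout libraries, against 76.6%, 76.1% and 76.6% in the control libraries. PCDHA1 to PCDHA14 together made up 22.9%, 22.7% and 22.3% in knockout, against 11.1%, 10.2% and 9.92% in control. The ratio of PCDHAC2 to summed PCDHA1 to PCDHA14 was 2.65, 2.67 and 2.78 in the OTX2 knockout libraries, against 6.90, 7.43 and 7.72 in the control libraries. This ratio does not depend on scaling between libraries, its groups did not overlap, and like the shares it is not corrected for exon length. Summed alpha CPM was 69.3, 67.1 and 72.0 in knockout, against 118, 111 and 113 in control. Without both C-type genes the sum was 15.9, 15.2 and 16.1 CPM in knockout, against 13.1, 11.3 and 11.2 CPM in control. The alpha sum was thus lower in OTX2 knockout through its C-type genes, and the sum of the alternately used genes was higher. PCDHA3 held a mean of 26.93% of the latter sum in knockout and 22.65% in control. PCDHA11 held 40.71% in knockout and 45.27% in control, and no other gene of this sum was called.

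**Figure D2:**
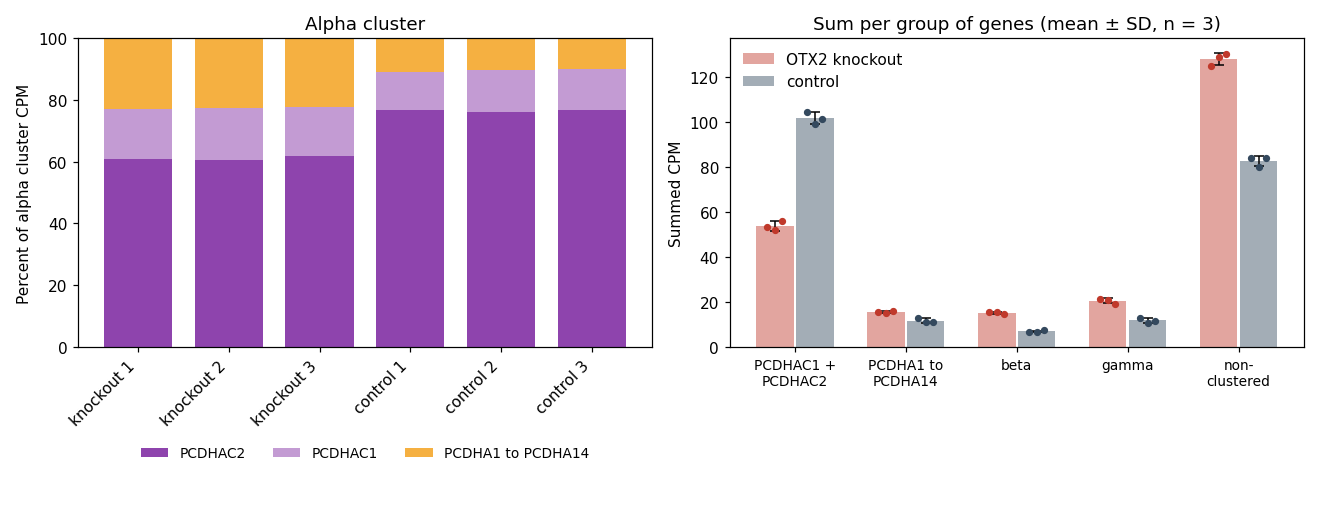
Left, percent of alpha cluster CPM held by PCDHAC2, PCDHAC1 and PCDHA1 to PCDHA14 in each library, with the 3 OTX2 knockout libraries left of the 3 control libraries. Right, summed CPM per group of genes (bars are the mean, error bars the SD of 3 libraries, points the libraries): the sum of PCDHAC1 and PCDHAC2 is lower in OTX2 knockout, 53.8 against 101.7 CPM in control, and the other 4 sums are higher in knockout.

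The beta genes code for proteins without a shared constant part. Of 17 genes 8 were tested, and all 8 were called higher in OTX2 knockout, with log2 fold changes of 0.84 to 1.48. Among all tested genes 21.2% were called higher. The filter minimum was reached in all libraries of both groups by 5 of them. PCDHB11 had 4.88, 4.84 and 4.56 CPM in the OTX2 knockout libraries, against 1.81, 1.73 and 2.05 CPM in the control libraries. Every knockout value exceeded every control value, and the log2 fold change was 1.36 ± 0.11 (SE; edgeR, adjusted p = 1.1e-07). PCDHB15 had 3.71, 3.87 and 3.71 CPM in the OTX2 knockout libraries, against 1.93, 2.34 and 1.74 CPM in the control libraries. Again there was no overlap, with a log2 fold change of 0.90 ± 0.12 (edgeR, adjusted p = 2.65e-05).

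PCDHB2, PCDHB9 and PCDHB13 reached the filter minimum in all knockout libraries but not in all control libraries. PCDHB2 had 0.345, 0.372 and 0.537 CPM in the OTX2 knockout libraries, against 0.0903, 0.169 and 0.188 CPM in the control libraries. PCDHB9 had 0.298, 0.420 and 0.348 CPM in knockout, against 0.108, 0.152 and 0.150 CPM in control. PCDHB13 had 0.534, 0.615 and 0.269 CPM in knockout, against 0.253, 0.0847 and 0.225 CPM in control. In each of the 3 genes every knockout value exceeded every control value, and the log2 fold changes were 1.48 ± 0.34, 1.36 ± 0.33 and 1.34 ± 0.39 in that order (SE; edgeR, adjusted p = 0.003, 0.00381 and 0.0136). The call of PCDHB13 was lost without control replicate 2, without knockout replicate 1 and without knockout replicate 2. The 9 untested beta genes summed to low counts, and 7 of them had the higher mean in OTX2 knockout; PCDHB1, with 1 count in each group, and PCDHB18 did not.

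Summed beta CPM was 15.7, 15.4 and 14.6 in the OTX2 knockout libraries, against 6.81, 6.91 and 7.45 in the control libraries, a ratio of 2.16. PCDHB11, PCDHB14 and PCDHB15 together held 70.2%, 73.4% and 73.9% of it in knockout, against 75.9%, 72.1% and 66.8% in control, so these shares overlapped. The share of PCDHB11 alone was 31.1%, 31.3% and 31.4% in knockout, against 26.5%, 25% and 27.5% in control, without overlap. Beta genes resemble each other: up to 34.6% of the 75-base strings of a beta gene occurred in another protocadherin gene (PCDHB8), and 9.36% for PCDHB11, so counts of single beta genes are uncertain where the aligner split such reads.

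In 12 of the 13 beta genes with a window, all but PCDHB1, the most widely shared 9-base string was GGTGGCGCT, which 0.619% of all genes held on either strand. Sites of 3 genes called higher show the resemblance around it (string in capitals, GRCh38.p14, plus strand), at chr5:141192290-141192338, chr5:141223254-141223302 and chr5:141245305-141245353.
PCDHB10: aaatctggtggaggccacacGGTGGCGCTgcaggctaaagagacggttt
PCDHB14: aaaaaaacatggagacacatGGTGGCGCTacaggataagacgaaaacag
PCDHB15: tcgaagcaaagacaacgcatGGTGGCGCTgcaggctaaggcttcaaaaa
The string contains CGCT as well. The GENCODE model of PCDHB14 starts at base 141222932, so by GENCODE its printed site is exon rather than promoter. No beta window held TAATCC.

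Of the 21 gamma genes, which like the alpha genes share constant exons, 17 were tested, 14 were called higher in OTX2 knockout, none was called lower, and PCDHGA1, PCDHGB4 and PCDHGA11 did not pass the test. Among the 14 tested genes that reached the filter minimum in all libraries of both groups, 12 were called higher. The A subfamily had 9 of 11 tested genes called and the B subfamily 5 of 6, against 21.2% called higher of all tested genes. Log2 fold changes of the 17 tested genes ran between 0.06 and 1.204.

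PCDHGB1 had 3.66, 3.95 and 3.44 CPM in the OTX2 knockout libraries, against 2.19, 2.17 and 2.18 CPM in the control libraries. Its log2 fold change was 0.76 ± 0.11 (SE; edgeR, adjusted p = 4.99e-05). PCDHGA10 had 2.64, 2.36 and 2.34 CPM in the OTX2 knockout libraries, against 1.79, 1.68 and 1.88 CPM in the control libraries. Both genes, the most abundant of the cluster per exon length, were higher in every knockout library than in any control library, and the log2 fold change of PCDHGA10 was 0.46 ± 0.12 (edgeR, adjusted p = 0.00762). PCDHGB2 had 1.71, 1.49 and 1.33 CPM in knockout, against 0.921, 0.559 and 0.713 CPM in control. PCDHGA7 had 0.801, 0.857 and 0.806 CPM in knockout, against 0.451, 0.423 and 0.225 CPM in control. In both genes the groups were apart, with log2 fold changes of 1.05 ± 0.19 for PCDHGB2 and 1.15 ± 0.24 for PCDHGA7 (edgeR, adjusted p = 5.3e-04 and 0.00161). PCDHGA2 had 0.345, 0.356 and 0.379 CPM in knockout, against 0.0542, 0.169 and 0.244 CPM in control. PCDHGA12 had 0.377, 0.437 and 0.221 CPM in knockout, against 0.199, 0.0847 and 0.206 CPM in control. Both reached the filter minimum in all knockout libraries but not in all control libraries. Their log2 fold changes were 1.204 ± 0.38 and 1.08 ± 0.38 (edgeR, adjusted p = 0.0195 and 0.0345). PCDHGA2 lost its call without control replicate 1, and PCDHGA12 lost it in DESeq2, without control replicate 2, without knockout replicate 1 and without knockout replicate 2.

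The 3 C-type gamma genes were near the counting floor and were not tested. In mouse, PCDHGC4 is the gamma isoform that interneurons need for survival. PCDHGC3 had 33 counts in the OTX2 knockout group and 25 in the control group, PCDHGC4 had 27 in knockout and 10 in control, and PCDHGC5 had 41 in knockout and 13 in control. Their summed CPM was 0.518, 0.615 and 0.474 in knockout, against 0.307, 0.254 and 0.300 in control. The groups did not overlap in this sum, on few counts. Summed gamma CPM was 21.3, 21.2 and 19.4 in knockout, against 13.02, 10.9 and 11.9 in control.

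The string GCGCCGCTG was the most widely shared of 9 bases in gamma windows, in 9 of 19 genes, and 1.59% of all genes held it on either strand. Sites of PCDHGB1 and PCDHGA10 are shown with the string, which again contains CGCT, in capitals and the junctions of the same genes below them. The sites are at chr5:141350017-141350065 for PCDHGB1 and chr5:141412923-141412971 for PCDHGA10 (GRCh38.p14, plus strand).
PCDHGB1 promoter: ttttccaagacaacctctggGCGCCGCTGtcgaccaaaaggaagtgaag
PCDHGA10 promoter: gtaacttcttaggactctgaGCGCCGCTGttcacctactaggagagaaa
PCDHGB1 junction: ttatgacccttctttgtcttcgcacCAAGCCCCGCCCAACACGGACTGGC
PCDHGA10 junction: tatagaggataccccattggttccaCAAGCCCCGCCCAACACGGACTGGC
In the junctions the capitals are the first constant exon of the gamma cluster, 59 bases at chr5:141494807-141494865, shared by all 21 members. TAATCC was present in 2 of the 19 gamma genes with a window, PCDHGA10 and PCDHGA2. None of the 3 shared strings was found in a window of the 4 C-type genes that have one.

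**Figure D3:**
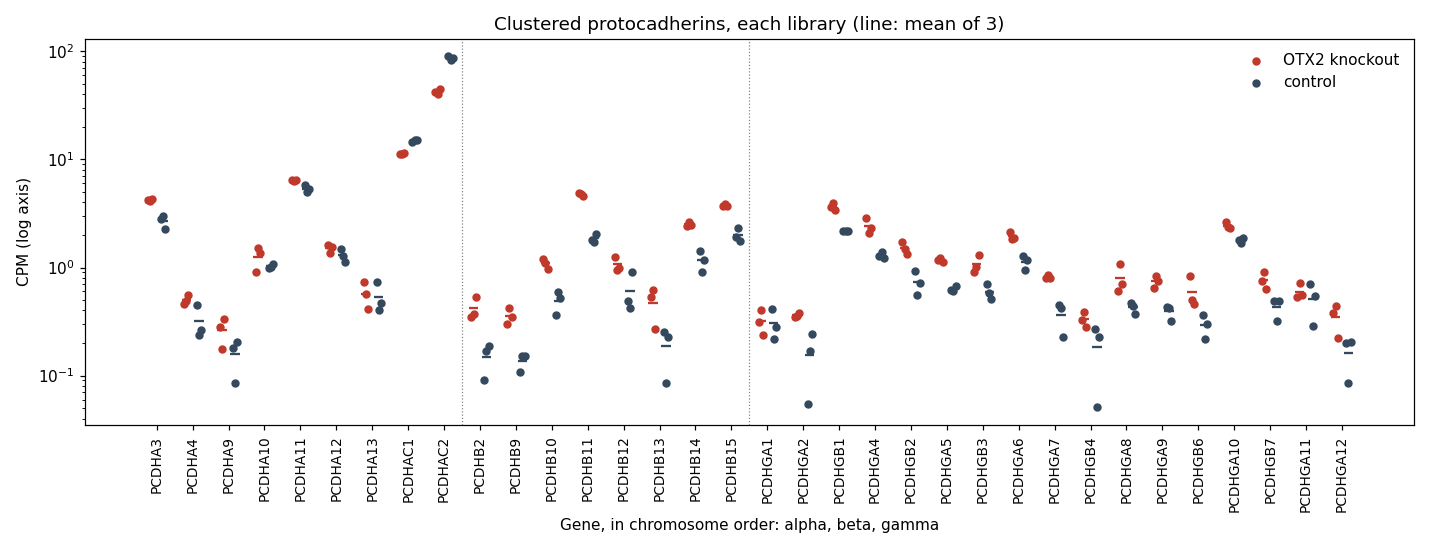
CPM (log axis) of each tested clustered gene in every library, OTX2 knockout points left of control points, with a line at the mean of 3 libraries; dotted lines part the alpha, beta and gamma clusters. PCDHAC2 and PCDHAC1 are the tested clustered genes whose knockout points lie below all control points; CPM is not divided by length here.

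Over the 54 clustered genes, summed CPM was 106, 104 and 106 in the OTX2 knockout libraries, against 137, 128 and 132 in the control libraries, so the total was lower in knockout although most genes were higher. PCDHAC2 held 39.6%, 39.2% and 42.1% of clustered CPM in knockout, against 65.5%, 65.5% and 65.4% in control. Without the C-type genes the clustered sum was 52.4, 51.2 and 49.5 CPM in knockout, against 32.6, 28.9 and 30.2 CPM in control. The number of clustered genes with at least 3 counts was 50, 48 and 49 in knockout, against 46, 45 and 46 in control. This number is not corrected for depth. TMM-scaled library sizes were 61843796 to 63691251 in knockout and 53310607 to 59044085 in control.

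The clusters span 726.8 kb of chromosome 5. Within 500 kb of either end and between the clusters, 28 other genes were looked at after the values of the clusters had been seen. Of the 26 tested, 6 were called higher (PFDN1, HBEGF, CD14, RELL2, FCHSD1 and ARAP3) and 2 lower (IK and WDR55), with a median log2 fold change of 0.04. The shares over all tested genes were 21.2% higher and 18.5% lower, with a median of 0.01, so the share called higher was near that of all genes. TAF7, which lies between the beta and gamma clusters and codes for a subunit of the general transcription factor TFIID, had a ratio of knockout to control CPM of 1.001 (edgeR, adjusted p = 0.993).

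Among the non-clustered genes, which are spread over several chromosomes, 8 of 12 were tested, 7 were called higher and PCDH8 lower. The shares of all tested genes were 21.2% higher and 18.5% lower. Of the delta-1 genes, PCDH9, PCDH7 and PCDH11X were called higher and PCDH1, with 12 counts in knockout and 3 in control, was not tested. Of the delta-2 genes, PCDH18, PCDH10, PCDH19 and PCDH17 were called higher. PCDH12, PCDH15 and PCDH20 had at most 6 counts in a group and were not tested. TAATCC was present in 1 of the 10 non-clustered genes with a window, PCDH15.

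PCDH18 (chromosome 4), which in mouse binds the reelin adaptor Dab1, had 71.5, 75.6 and 76.5 CPM in the OTX2 knockout libraries, against 37.1, 34.6 and 36.4 CPM in the control libraries. There was no overlap between groups, and the log2 fold change was 1.05 ± 0.049 (SE; edgeR, adjusted p = 3.82e-10). PCDH10, also on chromosome 4, codes for a delta-2 protein that recruits the WAVE actin regulator to cell contacts. It had 3.41, 2.83 and 2.57 CPM in knockout, against 0.632, 1.08 and 0.788 CPM in control. The log2 fold change of 1.81 ± 0.18 (edgeR, adjusted p = 1.34e-06) was the largest of the 42 tested members. PCDH19, whose loss causes an X-linked epilepsy, had 0.722, 0.776 and 0.521 CPM in knockout, against 0.181, 0.305 and 0.319 CPM in control. The groups did not overlap, with a log2 fold change of 1.32 ± 0.28 (edgeR, adjusted p = 0.00144).

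PCDH8 (chromosome 13), whose rat orthologue arcadlin is induced by synaptic activity, had 22.6, 23.3 and 24.3 CPM in the OTX2 knockout libraries, against 30.2, 30.4 and 32.9 CPM in the control libraries. It was the non-clustered gene with every knockout value below every control value, with a log2 fold change of −0.41 ± 0.055 (SE; edgeR, adjusted p = 2.56e-05), and it did not pass the test against a 1.5-fold change. PCDH9, on the same chromosome, had 23.9, 24.1 and 23.7 CPM in knockout, against 15, 12.99 and 12.7 CPM in control. Its log2 fold change was 0.82 ± 0.066 (edgeR, adjusted p = 1.3e-07), and its groups did not overlap.

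PCDH7 reached the filter minimum in all knockout libraries but not in all control libraries. It had 0.659, 0.534 and 0.742 CPM in the OTX2 knockout libraries, against 0.217, 0.136 and 0.225 CPM in the control libraries, with a log2 fold change of 1.75 ± 0.28 (SE; edgeR, adjusted p = 1.7e-04). PCDH11X had 1.37, 1.39 and 1.28 CPM in knockout, against 0.469, 0.559 and 0.469 CPM in control, with a log2 fold change of 1.42 ± 0.18 (edgeR, adjusted p = 1.47e-05). Both genes were higher in every knockout library than in any control library. Of the 75-base strings of PCDH11X, 44.0% also occur in its near-identical Y-linked copy, so its count is uncertain. PCDH17, chosen after its values were seen, also reached the filter minimum in all knockout but not all control libraries, with 91 counts in knockout and 25 in control.

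**Figure D4:**
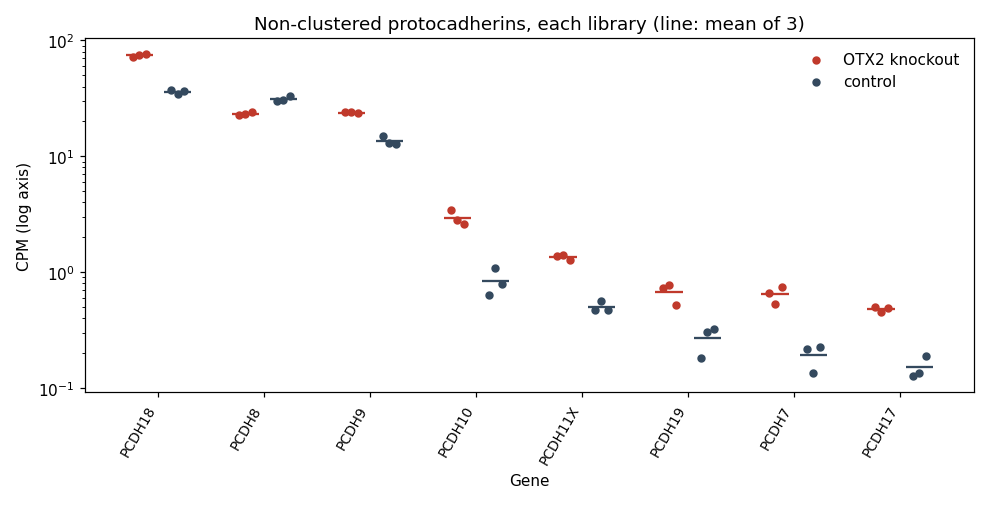
CPM (log axis) of the 8 tested non-clustered protocadherins in each library, OTX2 knockout points left of control points, with a line at the mean of 3 libraries. PCDH8 is the gene with knockout points below the control points, and in the other 7 genes the knockout points lie above; CPM is not divided by length here.

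Divided by the length of exon not shared with other genes, levels can be set between members. PCDHAC2 ranked highest in both groups, at 14.3 to 15.7 CPM per kb in the OTX2 knockout libraries and 29.6 to 31.7 CPM per kb in the control libraries. PCDH18 followed at 12.1 to 12.95 CPM per kb in knockout, and in control at 5.85 to 6.28 CPM per kb. In control cells PCDH18, PCDHAC1 (5.94 to 6.26 CPM per kb) and PCDH8 (5.94 to 6.47 CPM per kb) overlapped and could not be ordered. In knockout cells PCDHAC1 (4.62 to 4.69 CPM per kb) and PCDH8 (4.44 to 4.78 CPM per kb) overlapped, with PCDH9 at 4.25 to 4.32 CPM per kb just below. The mean of PCDHAC2 was thus close to that of PCDH18 in knockout, at 14.9 and 12.6 CPM per kb, and apart from it in control, at 30.5 and 6.10 CPM per kb. Of the 5963 exon bases of PCDHAC2, 2841 were unshared. Its rank in knockout holds only if reads over shared exons were not counted for it, and the counting is not given. Before division by length, mean knockout CPM was 74.5 for PCDH18 and 42.4 for PCDHAC2. The summed CPM of all 66 protocadherins was 231, 233 and 236 in knockout, against 221, 209 and 216 in control, and without PCDHAC2 it was 189, 192 and 192 in knockout, against 131, 125 and 130 in control. PCDH18 took 57.3%, 58.6% and 58.8% of non-clustered CPM in knockout, against 44.2%, 43.1% and 43.3% in control.

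Genes with a known part in clustered promoter choice were described from a list of 17, all of which were tested. Of these, 3 were called higher and 8 lower, with a median log2 fold change of −0.12, against 21.2% higher and 18.5% lower of all tested genes. The cohesin subunits RAD21, SMC1A, SMC3 and STAG2 and the loader NIPBL were among the 8, as were SMCHD1, which in mouse silences clustered protocadherins, the maintenance methyltransferase DNMT1, and TET3. RAD21 had 859 ± 48.7 CPM in OTX2 knockout and 1141 ± 93.9 CPM in control (SD, n = 3 each), with a log2 fold change of −0.41 (edgeR, adjusted p = 8.46e-05). The log2 fold change was −0.33 for SMC1A and −0.27 for STAG2 (edgeR, adjusted p = 1.53e-04 and 6.2e-04). DNMT1 had 281 ± 4.21 CPM in knockout and 360 ± 8.40 CPM in control, a log2 fold change of −0.36 (edgeR, adjusted p = 1.08e-05). DNMT3B, a methyltransferase that sets new marks, had 21.7 ± 0.47 CPM in knockout and 16.03 ± 0.78 CPM in control, a log2 fold change of 0.44 (edgeR, adjusted p = 2.41e-05), and DNMT3A and WIZ were the other genes called higher. CTCF had 70.7 ± 0.90 CPM in knockout and 73.0 ± 1.67 CPM in control, with a log2 fold change of −0.05 (edgeR, adjusted p = 0.43), within the spread of the libraries. All of these changes were under 1.5-fold in CPM.

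Of 19 listed partners of protocadherin signalling 18 were in the table and tested, 6 were called higher and 2 lower, and the median log2 fold change was 0.05. Among all tested genes the shares were 21.2% higher and 18.5% lower. FYN, the Src-family kinase through which alpha protocadherins were first found in mouse, had 55.2 ± 3.55 CPM in OTX2 knockout and 30.6 ± 1.80 CPM in control (SD, n = 3 each), a log2 fold change of 0.85 (edgeR, adjusted p = 2.87e-08). WASF1, the WAVE subunit, had a log2 fold change of 0.26 and ABI2, of the same complex, 0.15 (edgeR, adjusted p = 4.87e-04 and 0.0165), while ABI1 had −0.17 (edgeR, adjusted p = 0.00647). NCSTN, a subunit of gamma-secretase, which cuts protocadherins, had a log2 fold change of 0.25 (edgeR, adjusted p = 0.00307). NCSTN, ABI1 and ABI2 overlap exons of other genes, so their counts are uncertain.

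Other members of the cadherin superfamily were described from a list of 40 genes. Of these 27 were tested, 14 were called higher and 4 lower, with a median log2 fold change of 0.54, against 21.2% higher and 18.5% lower of all tested genes. CDH23, a long cadherin of the hair-cell tip link, had 5.998, 6.53 and 7.27 CPM in the OTX2 knockout libraries, against 0.488, 0.237 and 0.394 CPM in the control libraries. Its log2 fold change was 4.15 ± 0.17 (SE; edgeR, adjusted p = 1.02e-10), whereas PCDH15, its partner in the tip link, had 5 counts in the knockout group and 6 in the control group. FAT3, CLSTN2, DCHS1 and FAT1 had log2 fold changes of 1.82, 1.71, 1.21 and 0.91 in that order (edgeR, adjusted p = 4.46e-10, 2.3e-10, 7.21e-10 and 3.29e-09). FAT3 and FAT1 are giant cadherins, DCHS1 is the ligand of FAT4 and CLSTN2 is a synaptic calsyntenin. The genes called lower were FAT2, CDH20, CDH11 and CELSR3.

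Markers of cell state moved with these groups. Of 8 neuronal markers 7 were tested, 6 were called higher and 1 lower, the median log2 fold change was 1.92, and TUBB3 was at 0 in all libraries. MAP2, DCX, STMN2, SNAP25, ELAVL3 and ELAVL4 were the higher ones, with MAP2 at 12.5 ± 0.84 CPM in OTX2 knockout and 1.57 ± 0.20 CPM in control and SNAP25 at 13.4 ± 1.18 CPM in knockout and 5.999 ± 0.48 CPM in control (SD, n = 3 each). SYT1 was the lower one, at 148 ± 8.72 CPM in knockout and 170.0 ± 11.6 CPM in control, and it made up most of the summed level of 203 to 225 CPM in knockout and 175 to 200 CPM in control. All 7 listed Group 3 and photoreceptor genes, OTX2 among them, were called lower, with sums of 3122 to 3688 CPM in knockout and 4455 to 4770 CPM in control. Of 6 fibroblast markers 4 were tested and 3 called higher, with sums of 18.7 to 19.8 CPM in knockout and 8.81 to 9.51 CPM in control. Of 5 endothelial markers 3 were tested and 2 called higher, with sums of 5.50 to 6.56 CPM in knockout and 2.53 to 4.00 CPM in control. Of 5 astroglial markers 2 were tested, GJA1 was called higher and SLC1A3 lower, with sums of 312 to 358 CPM in knockout and 221 to 258 CPM in control, and GFAP at 0 to 0.0628 CPM. Of 5 immune markers 3 were tested and 1 called higher, with sums of 0.411 to 0.707 CPM in knockout and 0.457 to 0.732 CPM in control, and CD3E at 0. Beside these marker counts, 21.2% of all tested genes were called higher and 18.5% lower. The part of these markers in the protocadherin results was not tested.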

How the data were processed

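Total RNA of 6 D283 cultures, 3 with a guide RNA against OTX2 and 3 with a non-targeting guide, had been sequenced. The authors deposited unnormalized counts per gene symbol, with 1 column per library; per the submitters' processing notes, STAR and hg38 were used. Sources used here do not give the counting program, the annotation or the strand setting. Columns were assigned to libraries by title, and groups by the genotype label.

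The counts were fitted in edgeR 4.0.16 (R 4.3.3). Genes were filtered with filterByExpr at its defaults (a minimum count of 10, here 0.164 CPM, in at least 3 libraries), libraries were scaled by TMM, and groups were compared with the quasi-likelihood F test on 4 residual degrees of freedom. Benjamini-Hochberg adjustment ran over all 18420 tested genes, and an adjusted p under 0.05 was called. CPM uses TMM-scaled library sizes, and log2 fold changes are those of the fit. Each standard error (SE) was derived as the absolute log2 fold change divided by the square root of the F statistic. Floors based on counts cover counting error only, since reads need not be independent molecules.

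Gene models, exon lengths and junctions came from GENCODE release 29 (GRCh38), promoter windows from RefSeq GRCh38.p14, which gave windows for 55 of the 66 members. Motifs were searched on both strands. Each protocadherin model was the transcript of the gene with the longest coding sequence. Shared 75-base strings were counted between protocadherin models. Sums and lists were described without a test.

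Members and lists were chosen with earlier results of these data known. Named were the non-clustered members with at least 0.5 CPM in either group, in each cluster the 4 largest rises and 4 largest falls among called genes, the 2 most abundant per exon length and the C-type genes, OTX2, and up to 5 genes per list with the smallest adjusted p. Alternatives were other scalings, other filters, DESeq2 1.42.0, limma-voom (limma 3.58.1), a test against a 1.5-fold change (glmTreat), a threshold of 0.01 and leaving out each library in turn. The script was tested on simulated data with known changes. One listed set of cell type markers is not reported here.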

Additional observations from a re-analysis of the deposited data

How the results depend on the processing

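The 31 protocadherins called higher and the 3 called lower in OTX2 knockout were recounted under each alternative. The count of higher genes was 31 with RLE size factors, upper-quartile factors, library totals alone and limma-voom, 29 with DESeq2, 35 with no filter, 23 at a threshold of 0.01, and 25 to 35 when each library was left out in turn, lowest without control replicate 2. A stricter filter (1 CPM or more in 3 or more libraries) left 20 members tested and 15 called higher, since fewer genes were tested. The test against a 1.5-fold change (glmTreat) called 12 higher and 1 lower (PCDHAC2), 1207 of all tested genes in place of 7312, and 12 genes of the 3 lists in place of 37. PCDHAC2, PCDHAC1 and PCDH8 were the lower genes in every other setting run. Of 322 alternative log2 fold changes of 22 named members, 292 stayed on the same side of the threshold, 30 lost the call and 0 changed sign. With library totals alone, 5210 of all tested genes were higher and 2034 lower (71.9% of calls higher), against 3908 and 3404 (53.4%) with TMM; under glmTreat 87% of calls were higher. No paired analysis was possible because the labels number the libraries 1 to 6 and the groups share no numbers. PCDHA11 lost its call in 5 of the 6 fits without 1 library, PCDHB13 and PCDHGA12 in 3 and PCDHGA2 in 1; the other named members kept theirs in all 6.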

Other observations

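PCDHGB8P, a gamma pseudogene outside the rule for members, had 0.413 ± 0.064 CPM in OTX2 knockout and 0.173 ± 0.0066 CPM in control (SD, n = 3 each), with a log2 fold change of 1.25 (edgeR, adjusted p = 0.00332). PCDH8P1 had 8, 11 and 13 counts in the OTX2 knockout libraries, against 0, 0 and 1 in the control libraries, and was not tested; it was chosen after its values were seen, and PCDH8, the gene it is named after, was lower in knockout.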
